A study of Mus musculus with 30 samples.

Results

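The choroid plexus genes described here are 10 genes that mark the epithelium of the choroid plexus: Ttr, Folr1, Kl, Clic6, Kcnj13, Aqp1, F5, Otx2, Enpp3 and Slc4a5. They were chosen by name, and each matched a row of its own among the 34871 genes of the deposited table. RNA of the brain, from the cerebral hemispheres per the labels, was measured by RNA sequencing in 30 mice aged 8 months: 10 wild-type mice (Tmem106b +/+, WT), 10 with 1 intact copy (Tmem106b +/-, HET) and 10 with none (Tmem106b -/-, KO). In every genotype, cohort 1 gave 6 mice (3 of each sex) and cohort 2 gave 4 (2 of each sex). The sources used here do not give the strain, the targeted part of Tmem106b or what a cohort is. Every library came from its own mouse, so errors are between animals. A mouse is named below by genotype and by a replicate number that follows the order of the samples and pairs nothing.

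The choroid plexus is a folded sheet of epithelial cells over leaky capillaries that hangs in the brain ventricles. Its epithelium secretes the cerebrospinal fluid and, through its tight junctions, forms the barrier between blood and that fluid. The cells move sodium, chloride, bicarbonate and water from blood to ventricle, and release carrier proteins and growth factors into the fluid. The plexus is a very small share of the tissue of a hemisphere. In such bulk samples fewer cells of a type and less RNA per cell cannot be told apart.

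Of the secreted and surface proteins, Ttr encodes transthyretin, the carrier of thyroid hormone and retinol in the fluid. Folr1 (folate receptor alpha, which carries folate across the epithelium) lies at chr7:101858331-101870788 (mm10), and Kl (klotho, a co-receptor for a fibroblast growth factor) at chr5:150952607-150993809. F5 (coagulation factor V) lies at chr1:164151838-164220277 and Enpp3 (an enzyme of the cell surface that cleaves nucleotides) at chr10:24773814-24836195. Of the genes for ion and water transport, Slc4a5 (a sodium bicarbonate cotransporter) lies at chr6:83219828-83304945 and Kcnj13 (an inwardly rectifying potassium channel) at chr1:87386363-87394729. Aqp1, the water channel of the ventricular face of the cells, lies at chr6:55336432-55348555, and Clic6, of the chloride intracellular channel family, at chr16:92485736-92541243. Otx2, the homeobox transcription factor needed to form and maintain the choroid plexus, lies at chr14:48657679-48667644. The 10 genes are spread over 8 chromosomes. Values are totals for each gene.

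Because the genes include Otx2 itself, the letters bound by homeobox factors of its type were looked for in the promoters. RefSeq promoters (GRCm38.p6) were found for 7 of the 10 genes, not for Ttr, Folr1 and Clic6, and gave 10 promoters, 4 of them of Otx2. The search used the 250 bases before each start on both strands for the letters TAATC, which read as GATTA from the opposite strand. At least 1 match lay in a promoter of 3 genes (Enpp3, Kcnj13 and Otx2) and none in those of F5, Kl, Aqp1 and Slc4a5. Counted by promoter, 3 of the 10 held a match, and the same letters occur in 19.8% of all 32851 promoters of the same length. The longer form TAATCC, read as GGATTA from the opposite strand, contains the shorter one. It was matched in 1 of the 10 promoters, which belongs to Otx2, and in 6.25% of all promoters. The 4 promoters printed here are the 3 with a match and that of F5, the gene without a match whose level followed Clic6 most closely. They are written 5′ to 3′ along the strand of the gene, with each match in capitals.
Enpp3, chr10:24836196-24836445, minus strand: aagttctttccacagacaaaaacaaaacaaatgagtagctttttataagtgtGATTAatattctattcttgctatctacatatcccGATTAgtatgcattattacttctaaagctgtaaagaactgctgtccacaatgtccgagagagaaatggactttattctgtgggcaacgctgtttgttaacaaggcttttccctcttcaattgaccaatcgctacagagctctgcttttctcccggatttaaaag
Kcnj13, chr1:87394730-87394979, minus strand: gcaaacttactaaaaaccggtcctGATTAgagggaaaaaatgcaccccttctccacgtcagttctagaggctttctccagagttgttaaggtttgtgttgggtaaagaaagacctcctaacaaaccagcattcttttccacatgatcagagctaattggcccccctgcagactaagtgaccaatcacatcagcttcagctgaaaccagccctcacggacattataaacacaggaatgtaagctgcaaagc
Otx2, chr14:48665110-48665359, minus strand: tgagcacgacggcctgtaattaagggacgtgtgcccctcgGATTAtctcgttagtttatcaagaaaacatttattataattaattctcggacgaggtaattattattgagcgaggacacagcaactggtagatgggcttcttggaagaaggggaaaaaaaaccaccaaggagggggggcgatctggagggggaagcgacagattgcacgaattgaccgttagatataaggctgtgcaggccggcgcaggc
F5, chr1:164151585-164151834, plus strand: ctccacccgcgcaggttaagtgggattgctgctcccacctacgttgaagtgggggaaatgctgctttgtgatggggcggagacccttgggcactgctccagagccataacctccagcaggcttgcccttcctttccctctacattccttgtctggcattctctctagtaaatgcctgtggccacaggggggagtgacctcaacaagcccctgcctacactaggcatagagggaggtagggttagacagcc
Enpp3 had 2 matches, and Kcnj13 and Otx2 had 1 each. A match is a run of letters and not a shown binding site.

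Values are the authors' deposited log2 RPKM, that is reads scaled to gene length and to the size of the library and then normalized by conditional quantiles, so a difference of 1 is a doubling. Their number of reads is unknown, since the table holds no counts. Library medians over all genes lay between 2.82 and 2.91 and the lower quartiles between -1.20 and -0.07. Tmem106b itself checked the labels, with 9.17 ± 0.07 for WT, 8.58 ± 0.03 for HET and 7.53 ± 0.08 for KO (mean ± SD of 10 mice) and ranges that did not overlap. Genes with a mean above 0 were tested, 23695 in all, and all 10 choroid plexus genes were among them. Cerebellar markers were also high in these libraries, with means of 9.20 for Gabra6, 9.80 for Cbln3 and 8.43 for Pcp2, so the RNA was not shown to be free of cerebellum.

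On this length-scaled log2 scale Ttr stood far above the other 9 genes, with a mean level of 12.75 ± 0.20 (SD over the 30 mice), the rank 18 of all genes in the table. Kl at 6.26 ± 0.34 and Clic6 at 6.16 ± 0.25 came next and lay within each other's spread. Kcnj13 followed at 5.66 ± 0.33, then Otx2 at 4.96 ± 0.17, Aqp1 at 4.72 ± 0.29 and Folr1 at 4.59 ± 0.37, and these last 3 differed by about their spread or less. Slc4a5 at 3.80 ± 0.36 and F5 at 3.67 ± 0.42 also lay within each other's spread. Enpp3 was lowest by a wide margin, at 1.50 ± 0.37. All 10 defining genes were thus present in this brain RNA, from one of its most abundant transcripts to one near the lower end of the genes tested.

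The genes differed in how far they ranged between mice. F5 spanned 1.88 on the log2 scale (3.69-fold) from the lowest to the highest mouse, Folr1 1.82 (3.53-fold) and Slc4a5 1.74 (3.34-fold). Otx2 spanned 0.85 (1.80-fold) and Ttr 0.95 (1.93-fold). The range of Ttr was measured in steps, because only 14 different values occurred among 30 mice and 7 mice shared the commonest one. Small differences of Ttr between mice are therefore not resolved. Enpp3 ranged over 1.53, about as far as Kcnj13 (1.51), but in a different order of mice.

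Overlaps were taken from the start and end of each gene. How reads were counted, and whether strand was used, is not given, so reads of overlapping genes may not have been told apart. Kcnj13 lies inside Gigyf2, which was itself at 6.53, above Kcnj13. Ttr (chr18:20665250-20674324) overlaps Gm16090 (2.57), Clic6 overlaps 2410124H12Rik (2.73), and F5 overlaps Gm16548 (0.60) and Gm16588 (-0.34), all at lower levels than the choroid plexus gene. The other 6 overlap no gene of the table.

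**Figure D1:**
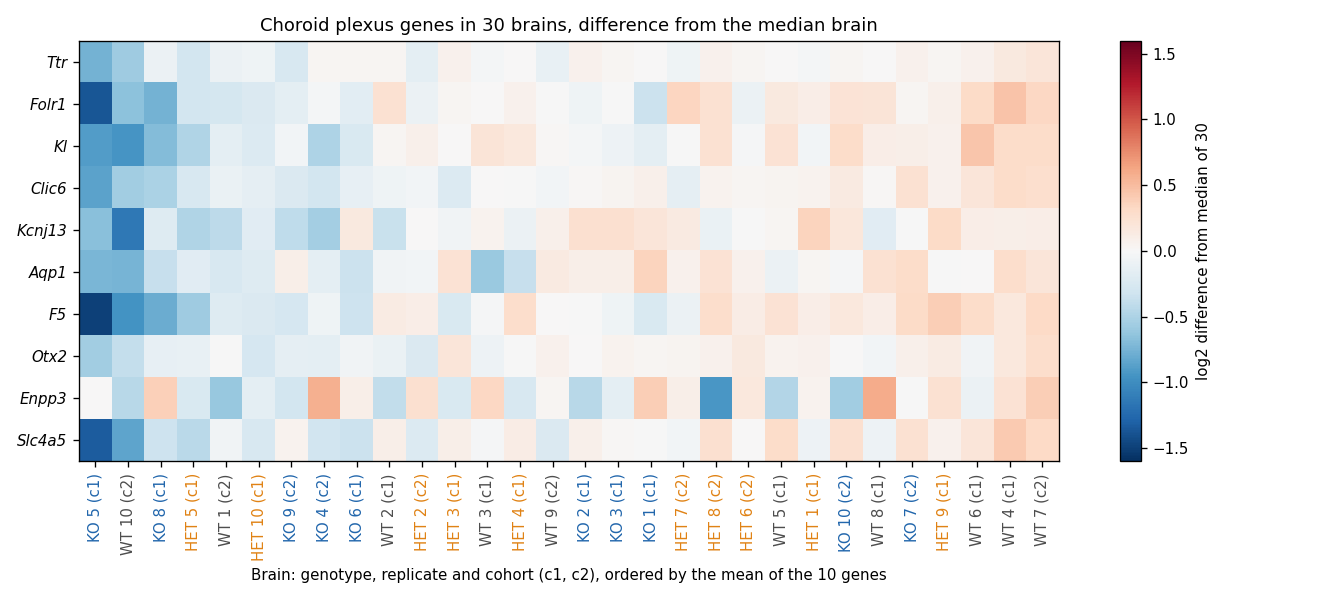
Each column is 1 of 30 mice, ordered from the lowest to the highest mean of the 10 choroid plexus genes, and each row is 1 gene. Colour gives the log2 difference from the gene's median over 30 mice. KO replicate 5 and WT replicate 10, at the left edge, are each among the lowest 3 mice in the 9 rows other than Enpp3, while Enpp3 follows no such order.

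Levels of 9 of the 10 genes varied together from mouse to mouse, and Enpp3 did not follow them. Over the 36 pairs among the 9, Pearson's r over 30 mice ran from 0.57 to 0.91 with a median of 0.75, and Spearman's rho from 0.39 to 0.84 with a median of 0.64. All 36 passed a two-sided permutation test with either measure after Benjamini-Hochberg adjustment over the 45 pairs (highest adjusted p = 0.0034 for r and 0.0436 for rho). The share of pairs of other genes that would pass was not measured. The closest pair was Clic6 and F5 (r = 0.91, rho = 0.82, permutation p = 1e-05 for each, the smallest that 100000 permutations can give). Ttr and Slc4a5, a secreted carrier and a bicarbonate transporter, had r = 0.88 and rho = 0.75. Folr1 and Kl, the receptor and co-receptor, had r = 0.87 and rho = 0.84. Kcnj13 and Aqp1, a potassium and a water channel, formed the weakest of the 36 pairs (r = 0.57, adjusted permutation p = 0.00125).

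By gene, the median r with the other 8 was highest for Slc4a5 (0.87), F5 (0.87), Clic6 (0.84), Folr1 (0.83), Ttr (0.82) and Kl (0.82). It was 0.74 for Otx2, 0.67 for Kcnj13 and 0.66 for Aqp1. Enpp3 had r between -0.12 and 0.19 with the other 9 genes, with a median of 0.04. None of its 9 pairs passed the permutation test (lowest adjusted p for r = 0.374, and 0 of 9 for rho). Enpp3 is also the gene of lowest level, and whether its low level bears on this was not tested.

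KO replicate 5 and WT replicate 10, the mice with the lowest mean over the 10 genes, raised these correlations. Without them, r over the 36 pairs ran from 0.27 to 0.83 with a median of 0.55 (n = 28 mice). In those 28 mice 29 of the 36 pairs still passed the permutation test on r and 26 the test on rho (median rho 0.56). Each of the 7 pairs that no longer passed on r held Kcnj13 or Aqp1, and 1 of them, Ttr with Aqp1, still passed on rho (0.44, adjusted permutation p = 0.036). Folr1 with Kl kept r = 0.81 and Clic6 with F5 0.82, whereas Kcnj13 with Aqp1 had 0.27 (adjusted permutation p = 0.21). Leaving out the 2 mice farthest from the median of the first gene of each pair gave nearly the same range, 0.27 to 0.83.

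The median correlation was no smaller with the labels taken into account, although single pairs were slightly lower, such as Folr1 with Otx2 (0.72 against 0.74). After genotype, sex, cohort and RNA integrity were fitted out of each gene, r over the 36 pairs ran from 0.68 to 0.93, with a median of 0.83. All 30 mice, the low ones included, were kept in these fits. Within single cohorts without their lowest mouse, the median over all 45 pairs, Enpp3 included, was 0.46 in cohort 1 and 0.56 in cohort 2. Over both cohorts it was 0.47 without KO replicate 5 and WT replicate 10, and 0.72 over all 30 mice. Within WT it was 0.54 without WT replicate 10, and within KO 0.57 without KO replicate 5. Within HET, whose lowest mouse (HET replicate 5, mean over the 10 genes 5.13) was kept, it was 0.52.

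**Figure D2:**
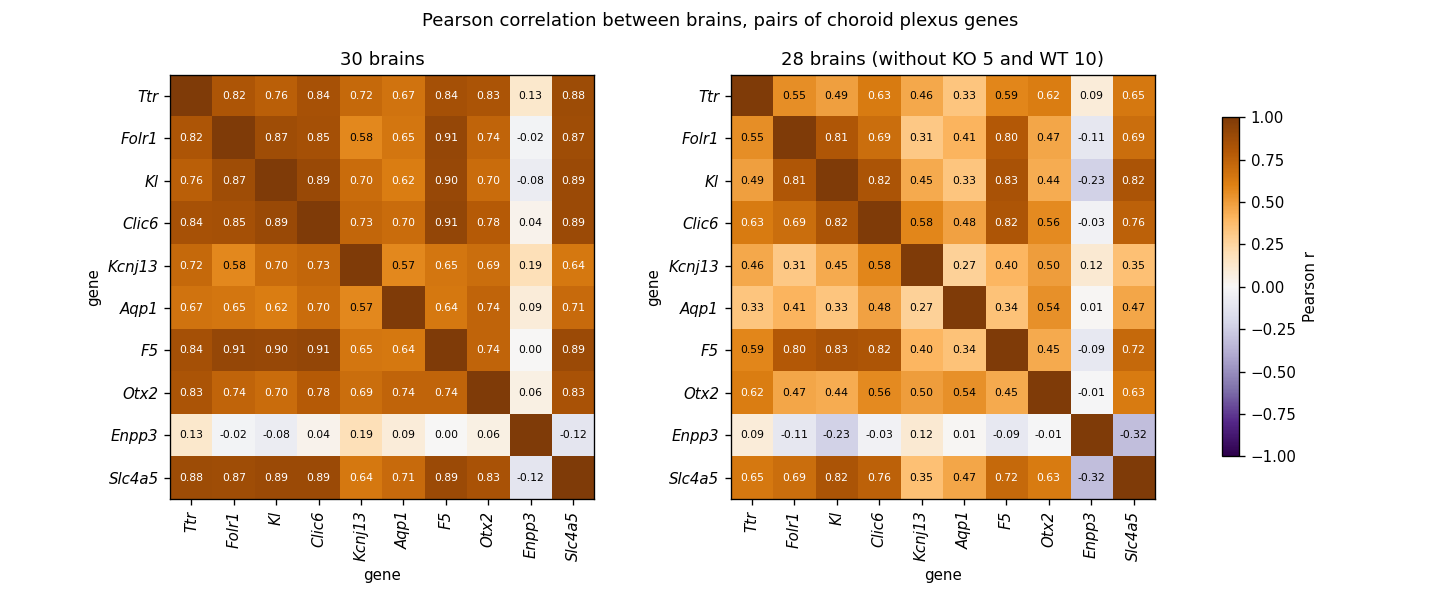
Pearson's r between mice for each pair of the 10 choroid plexus genes, over 30 mice (left) and over 28 mice without KO replicate 5 and WT replicate 10 (right). The 9 genes other than Enpp3 have r from 0.57 to 0.91 at left and from 0.27 to 0.83 at right, and Enpp3 has values near 0 in both.

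KO replicate 5, a female of cohort 1 with an RNA integrity number (RIN) of 9.0, was the lowest of all 30 mice for 6 of the 10 genes and among the lowest 3 for 9. Its F5 was 2.26, 35.6% of the median of 30 mice on the linear scale, and its Folr1 was 3.27, 38.7%. Slc4a5 stood at 2.54, 39.9% of the median. The reductions of the more abundant genes were smaller, with Kl at 53.9%, Clic6 at 55.3%, Ttr at 59.2%, Aqp1 at 60.2%, Kcnj13 at 63.2% and Otx2 at 67.8%. Enpp3 was at 100.8% of its median in the same mouse.

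WT replicate 10, a male of cohort 2 with a RIN of 9.3, was the lowest for 3 genes (Kl, Kcnj13 and Aqp1) and among the lowest 3 for 9. Kcnj13 was at 4.60, 45.1% of the median of 30 mice, F5 at 2.80 (51.4%) and Kl at 5.39 (52.1%). Slc4a5 was at 55.8%, Aqp1 at 59.9%, Folr1 at 63.2%, Ttr at 67.2%, Clic6 at 67.9%, Enpp3 at 73.5% and Otx2 at 76.6%. The genes that were lowest thus differed between the mice: Folr1 was 3.27 in KO replicate 5 and 3.98 in WT replicate 10, and Kcnj13 was 5.09 and 4.60.

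KO replicate 8, a female of cohort 1 with a RIN of 9.8, followed, with F5 at 57.5%, Folr1 at 59.1% and Kl at 62.1% of the median. Its Ttr (93.7%) and Otx2 (91.3%) were close to the median. HET replicate 5, a male of cohort 1 with a RIN of 9.3, came next, with a mean over the 10 genes of 5.13. It lay below the median of 30 mice for each of the 10 genes. At the other end, WT replicate 7 and WT replicate 4 had the highest means over the 10 genes, 5.74 and 5.72, against 4.61 in KO replicate 5, 4.74 in WT replicate 10 and 5.12 in KO replicate 8. WT replicate 4 was the highest of 30 for Folr1, Clic6 and Slc4a5, and WT replicate 7 for Ttr and Otx2.

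Neither low mouse went against its genotype label: Tmem106b was 7.43 in KO replicate 5 and 9.06 in WT replicate 10. Their lower quartiles over all genes, -0.21 and -1.08, lay inside the range of the 30 libraries, at different sides of its median of -0.41. Mean RIN was 9.40 ± 0.28 for WT, 9.23 ± 0.22 for HET and 9.35 ± 0.49 for KO (SD, 10 mice a group). What else set these mice apart was not tested.

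**Figure D3:**
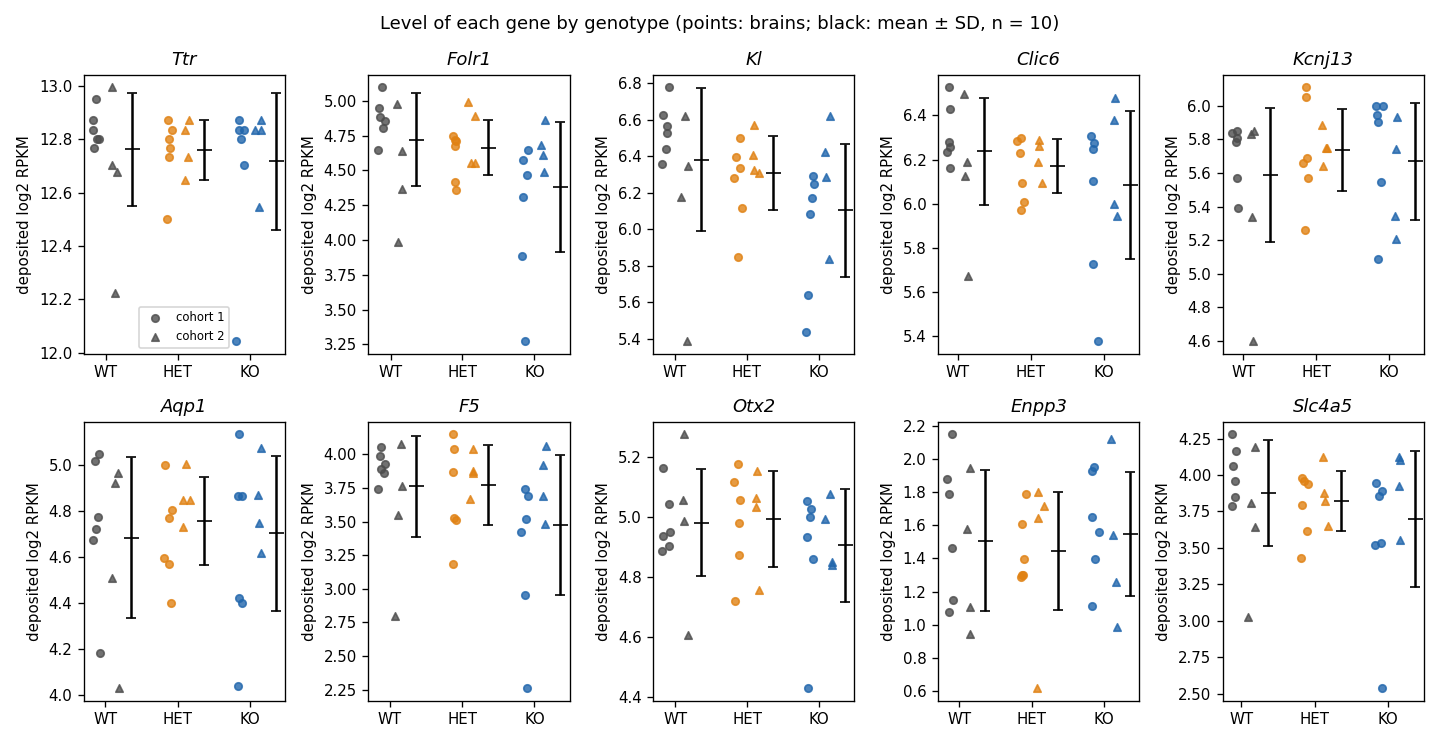
Deposited log2 RPKM of each choroid plexus gene by genotype; circles are mice of cohort 1, triangles of cohort 2, and the black mark is the mean ± SD (n = 10). The ranges of WT, HET and KO overlap for each gene, and single low mice (KO replicate 5, WT replicate 10) draw out the lower end of WT and KO.

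Over both cohorts, none of the 10 genes differed between KO and WT in limma at an adjusted p under 0.05, where 1.00% of all genes tested were called (237 of 23695). The values furthest below 0 for KO minus WT were those of Folr1, F5 and Kl. Folr1 ran from 3.98 over a median of 4.83 to 5.09 in WT, from 4.36 over 4.69 to 4.99 in HET and from 3.27 over 4.53 to 4.86 in KO. Kl ran from 5.39 over 6.48 to 6.78 in WT, from 5.85 over 6.33 to 6.57 in HET and from 5.44 over 6.21 to 6.62 in KO. For both genes the 3 groups overlapped over most of their range, although 9 of 10 KO mice lay below the WT mean of Folr1 and 8 of 10 below that of Kl.

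The fitted KO minus WT difference of Folr1 was -0.34 ± 0.15 (log2 ± SE), with a limma p of 0.0352 unadjusted and 0.363 adjusted. Kl had -0.28 ± 0.14 (adjusted p = 0.448) and F5 -0.29 ± 0.18 (adjusted p = 0.574). Slc4a5 had -0.17 ± 0.16, Clic6 -0.15 ± 0.11, Otx2 -0.07 ± 0.08 and Ttr -0.04 ± 0.08. Aqp1 (0.02 ± 0.13), Enpp3 (0.06 ± 0.18) and Kcnj13 (0.09 ± 0.14) had values above 0. The median over the 10 genes was -0.11, against 0.01 over all genes tested, and 7 of 10 were below 0. These genes share their low mice, so the 7 are not independent. An interval of 2 SE to each side runs from -0.20 to 0.13 for Ttr and from -0.65 to 0.08 for F5. The interval of Ttr was narrower, but its levels came in only 14 different values. The highest value of every library was also the same, 14.17. Whether the normalization narrows the spread of so abundant a gene was not tested.

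Without KO replicate 5 and WT replicate 10, the median KO minus WT difference was again -0.11. Folr1 then had -0.32 ± 0.11 (limma adjusted p = 0.189), Kl -0.32 ± 0.10 (0.178) and F5 -0.28 ± 0.13 (0.409). The low KO mouse and the low WT mouse thus offset each other in the pooled difference, and the SE of each gene but Enpp3 became smaller.

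In HET against WT, 0 of 10 genes were called, against 0.00422% of all genes (1 of 23695), the median over the 10 was 0.01, and the values ran from -0.08 ± 0.15 for Kl to 0.16 ± 0.14 for Kcnj13. Without KO replicate 5 and WT replicate 10, 9 of 10 values lay below 0 with a median of -0.09, and Kl had -0.21 ± 0.10 (limma adjusted p = 0.638), so the direction of this median turned with these mice. KO against HET gave 0 of 10 (0.118% of all genes called), with Folr1 at -0.30 ± 0.15, F5 at -0.31 ± 0.18 and 9 of 10 values below 0 (median -0.09). Without the same mice 4 of 10 lay below 0 (median 0.01), with Folr1 at -0.16 ± 0.11 and F5 at -0.15 ± 0.13. KO against HET and KO against WT share the KO mice, low replicates 5 and 8 included. A slope per deleted copy of Tmem106b called 0 of 10 (1.02% of all genes), with Folr1 at -0.17 ± 0.08 per copy (limma adjusted p = 0.36).

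KO and WT were also compared within each cohort. In cohort 1, with 6 mice a genotype, Folr1 fell in KO by 0.68 ± 0.17 on the log2 scale (limma adjusted p = 0.029), the 1 of 10 genes called, where 2.49% of all genes tested were. Folr1 levels in the 6 KO mice were 3.27, 3.88, 4.31, 4.47, 4.57 and 4.64. All lay below the 6 WT mice, whose levels were 4.65, 4.81, 4.85, 4.88, 4.95 and 5.09, although the gap between the groups was small. Kl did not overlap either, at 5.44 to 6.29 in KO and 6.36 to 6.78 in WT, and had -0.57 ± 0.17 (adjusted p = 0.0685). Every KO mouse lay below every WT mouse of cohort 1 for these 2 of the 10 genes and for 1.09% of all genes tested.

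Other genes of the group had values below 0 in cohort 1 without passing the test. F5 had -0.65 ± 0.21 (limma adjusted p = 0.114), with 5 of 6 KO mice below every WT mouse. Slc4a5 had -0.47 ± 0.19 (0.221) and Clic6 -0.31 ± 0.14 (0.278). Ttr had -0.16 ± 0.10, Aqp1 -0.12 ± 0.17, Otx2 -0.10 ± 0.10, Enpp3 0.01 ± 0.23 and Kcnj13 0.04 ± 0.18. The median over the 10 was -0.23, against 0.01 over all genes.

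In cohort 2, with 4 mice a genotype, 0 of 10 genes were called (0.0506% of all genes), and 9 of 10 had values above 0. Folr1 was 0.20 ± 0.21, Kl 0.16 ± 0.21, F5 0.27 ± 0.26 and Slc4a5 0.29 ± 0.24. The mice of lowest level lie in opposite groups, KO replicate 5 and KO replicate 8 among the KO mice of cohort 1 and WT replicate 10 among the WT mice of cohort 2. The mean over the 10 genes was 5.55 ± 0.11 in WT and 5.25 ± 0.35 in KO of cohort 1, and 5.30 ± 0.42 in WT and 5.44 ± 0.15 in KO of cohort 2 (mean ± SD, n = 6 and 4 a genotype).

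The difference between cohorts itself did not pass the test. For the interaction of KO against WT with cohort, 0 of 10 genes were called, against 0.0338% of all genes (8 of 23695). An unadjusted limma p under 0.05 was found for 4 of the 10 and for 8.53% of all genes (2020 of 23695). Folr1 had 0.88 ± 0.27 (p = 0.00307 unadjusted, 0.314 adjusted), F5 0.91 ± 0.34, Slc4a5 0.76 ± 0.31 and Kl 0.73 ± 0.27. Without KO replicate 5 and WT replicate 10, the median interaction over the 10 genes went from 0.36 to 0.09, and that of Folr1 to 0.50 ± 0.21 (limma adjusted p = 0.514).

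The call of Folr1 in cohort 1 depended on single mice. Without KO replicate 5 and WT replicate 10 it was still called, at -0.51 ± 0.13 (limma adjusted p = 0.0372), and cohort 2 then had -0.01 ± 0.16. Leaving out each of the 30 mice in turn kept the call in 25 fits, with adjusted p from 0.0166 to 0.0761. It was lost without KO replicate 5 (0.0761), KO replicate 8 (0.059), WT replicate 4 (0.072), WT replicate 5 (0.0533) or WT replicate 6 (0.0609). Without the 3 mice of lowest mean (also KO replicate 8), it was not called (0.0907), nor in a fit of the KO and WT mice alone.

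**Figure D4:**
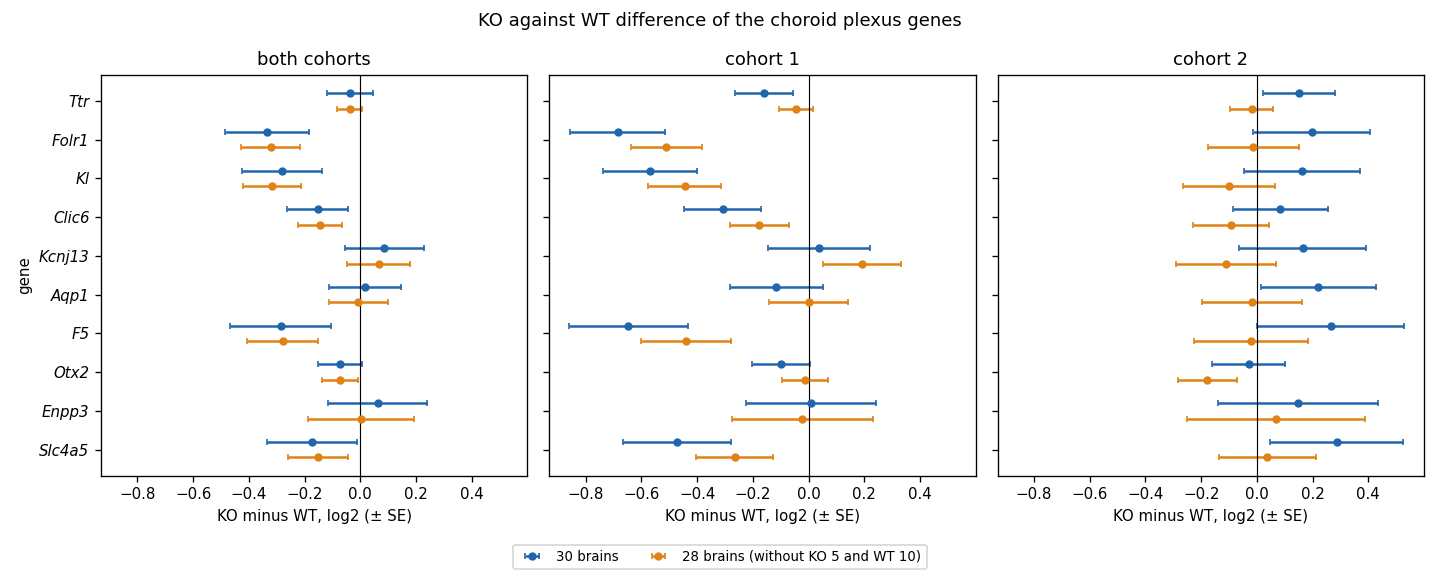
KO minus WT difference (log2, ± SE of the limma fit) of each choroid plexus gene in both cohorts together, in cohort 1 and in cohort 2, with 30 mice (blue) and without KO replicate 5 and WT replicate 10 (orange). Folr1, Kl, F5 and Slc4a5 lie furthest below 0 in cohort 1, and the values above 0 in cohort 2 move to near or below 0 without those mice for most genes.

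The cohort and the sex of the mice had no called effect on the 10 genes. Between cohorts 0 of 10 were called, although 17.5% of all genes tested were (4150 of 23695). The values ran from -0.15 ± 0.12 for Kcnj13 to 0.12 ± 0.16 for F5, and Ttr had 0.00 ± 0.07 (cohort 2 minus cohort 1). Male against female called 0 of 10 (0.333% of all genes), from -0.13 ± 0.12 for Kcnj13 to 0.12 ± 0.11 for Aqp1, and Ttr had 0.09 ± 0.07.

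Neither sex alone gave a call in KO against WT, in females (0.110% of all genes called) or in males (0.363%). The median over the 10 genes was -0.25 in females and 0.01 in males. The interaction with sex called 0 of 10 and 0% of all genes, with 1682 of 23695 genes and 1 of the 10, Ttr, at an unadjusted limma p under 0.05. KO replicate 5 is a female and WT replicate 10 a male. Without them the median was -0.06 in females and -0.22 in males, so the order of the sexes turned with these mice.

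The 12 other genes whose levels followed the group most closely were named, and 8 of them are on a wider list of choroid plexus genes (not Enpp2, Lbp, C1qtnf5 and Drc7). They were ranked by r over the 30 mice with the mean of the 10 genes, each first scaled to mean 0 and SD 1, as a description over libraries that share the same low mice. Over the 23685 other genes tested the median r was -0.01, with 12 genes above 0.8 and 56 above 0.6. First came Enpp2 (autotaxin, a secreted enzyme that makes lysophosphatidic acid, also made by oligodendrocytes) with r = 0.91, then Mfrp (0.90), Kcne2 (a potassium channel subunit, 0.88) and 1500015O10Rik (0.87). Sostdc1 (a secreted inhibitor of BMP and Wnt signals) had 0.87, Tmem72 0.87 and Cldn2 (the claudin of leaky tight junctions) 0.87. Trpv4 (a calcium-permeable channel, 0.84), Lbp (lipopolysaccharide binding protein, 0.84), C1qtnf5 (0.83), Drc7 (a part of motile cilia, 0.81) and Ace (angiotensin-converting enzyme, 0.80) completed the 12 that were ranked. C1qtnf5 lies within Mfrp, so their reads may not have been told apart.

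Without the 2 lowest mice the 12 kept values from 0.60 (Trpv4) to 0.87 (Sostdc1). Among the 10 genes, each of which enters this mean, 9 had r with it from 0.79 (Aqp1) to 0.94 (Clic6), and Enpp3 had 0.16. None of the 12 was called in KO against WT, and Sostdc1 (-0.26 ± 0.14) and Enpp2 (-0.26 ± 0.12) had the values furthest from 0.

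A wider list of 37 choroid plexus genes, 36 of them tested, was lowest in the same mice. Its summed level ran from 11.05 to 11.50 in WT, 11.13 to 11.43 in HET and 11.02 to 11.45 in KO, lowest in KO replicate 5 (11.02) and WT replicate 10 (11.05), where the median of 30 was 11.33. It had r = 0.91 with the scaled mean of the 10 genes over 30 mice, and 0.84 without those mice. The r of each list below was taken with the same scaled mean. In KO against WT 0 of the 36 were called, and 27 had values below 0, with a median of -0.07. The 4 furthest from 0 were Sostdc1 (-0.26 ± 0.14), Otx2os1 (0.26 ± 0.31), Car12 (-0.25 ± 0.07) and Cldn2 (-0.25 ± 0.16).

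In cohort 1, 3 of the 36 fell in KO and 0 rose, where 2.49% of all genes tested were called, and 33 had values below 0, with a median of -0.22. Car12, a carbonic anhydrase of the cell membrane, fell by 0.46 ± 0.07 (log2 ± SE, limma adjusted p = 0.000815). Igf2, a growth factor also made by the meninges, fell by 0.31 ± 0.08 (0.0433), and Slc4a2, an anion exchanger, by 0.16 ± 0.04 (0.0495). In cohort 2 the same genes had 0.05 ± 0.09, 0.41 ± 0.10 and -0.03 ± 0.05, and none was called. Between cohorts, where 17.5% of all genes tested were called, 1 of the 36 fell in cohort 2, the cation channel Trpm3 (-0.20 ± 0.06, adjusted p = 0.0286).

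Lists for the functions of the choroid plexus hold genes that are also used elsewhere in the brain. Of 18 genes for fluid and ion transport, 1 fell in KO against WT and 0 rose, where 1.00% of all genes tested were called. It was Car2, a carbonic anhydrase abundant in oligodendrocytes, at -0.21 ± 0.04 (limma adjusted p = 0.0016). The summed level of the 18 had r = 0.28 with the mean of the 10 genes. In cohort 1, 3 of the 18 fell (Car2, Car12 and Slc4a2), where 2.49% of all genes tested were called. Car12 and Slc4a2 are also on the wider choroid plexus list and were counted there. None of 11 genes for thyroid hormone and retinol carriers (r = 0.19) and none of 10 for folate uptake and use (r = 0.06) was called in KO against WT.

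Markers of other cell types that lie beside the choroid plexus were measured in the same libraries. For 14 genes of ependymal cells, which line the ventricles, the summed level ran from 9.82 to 10.03 in WT, 9.69 to 10.05 in HET and 9.78 to 9.98 in KO. It had r = 0.30 with the mean of the 10 genes, and 0 of 14 were called in KO against WT. KO replicate 5 was 14th of 30 from the low end and WT replicate 10 6th, so neither mouse was the lowest for this list.

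For 14 meningeal fibroblast genes, the summed level ran from 9.98 to 10.37 in WT, 9.95 to 10.33 in HET and 9.99 to 10.47 in KO. It had r = 0.53 with the mean of the 10 genes (0.35 without the 2 mice), and WT replicate 10 was 2nd and KO replicate 5 3rd from the low end. Igfbp2 (r = 0.59) and Igf2 (0.50) of this list are also on the wider choroid plexus list. The median r of its single genes was 0.26. In KO against WT 0 of 14 were called, and in cohort 1 (2.49% of all genes called) 5 of 14 fell (Dcn, Col1a1, Col3a1, Slc6a13 and Igf2), the cohort in which Folr1 was called. Of 10 endothelial genes, 1 fell in KO against WT (Tek), where 1.00% of all genes were called. In cohort 1, 4 of the 10 fell (Cldn5, Pecam1, Tek and Kdr), and the list had r = 0.21. Of 9 mural genes, 0 were called in KO against WT and 1 fell in cohort 1 (Pdgfrb), with r = -0.10. The part of meningeal and vascular tissue in the cohort 1 values of Folr1 and Kl was not tested.

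Lists for blood, neighbouring organs and brain regions were measured as well. The r of their summed level with the mean of the 10 was -0.18 for blood (10.81 to 14.55 over the 30 mice), -0.02 for pituitary (5.05 to 13.47), -0.07 for retinal pigment epithelium, which also uses Kcnj13 and Otx2, and 0.02 for the 2 pineal genes tested. It was 0.19 for hypothalamus, 0.35 for thalamus, 0.33 for cerebellum (0.12 without KO replicate 5 and WT replicate 10, which was the lowest of 30) and -0.04 for the 5 hindbrain genes tested. In KO against WT (1.00% of all genes called) 0 genes of these lists were called. In cohort 1 (2.49%) there was 1, Rpe65 of the retinal pigment epithelium list, lower in KO.

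**Figure D5:**
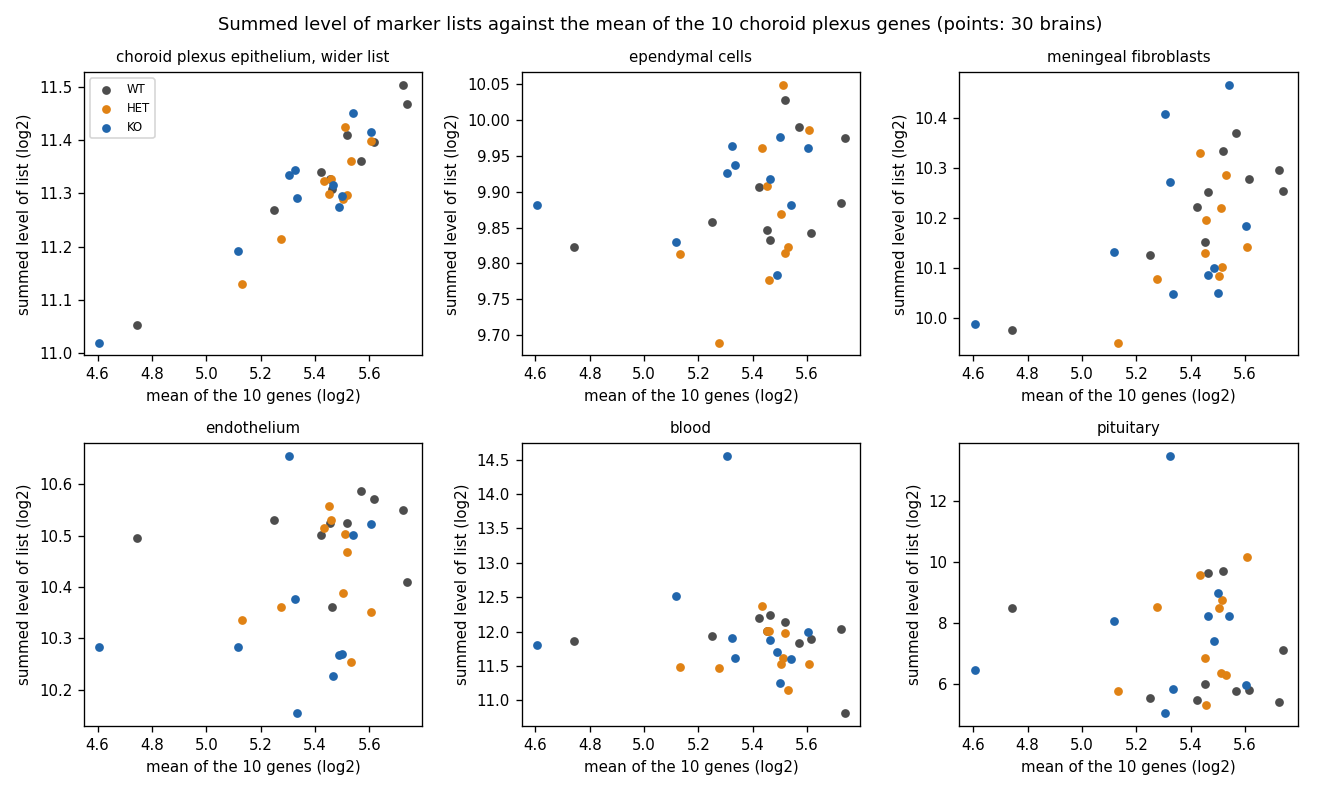
Each point is 1 of 30 mice; the x axis is the mean of the 10 choroid plexus genes and the y axis the summed level of a marker list, both on the log2 scale. The wider choroid plexus list rises with the 10 genes (r = 0.91), the meningeal list less so (0.53). The ependymal, endothelial, blood and pituitary lists have r between -0.18 and 0.30. Each r was taken with the mean of the 10 genes after scaling each to mean 0 and SD 1, whereas the x axis is unscaled.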

How the data were processed

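Brains of 30 mice, 10 a genotype, were compared. The submitters' processing notes name TopHat2 2.0.12, Bowtie 1.1.0 and mm10. How reads were counted, with which annotation and strand setting, is not given in the sources used here. Values are as the authors deposited them: log2 RPKM after conditional quantile normalization, per the file headers, which carry no read depth, so precision rests on the spread between mice. No pseudocount was added. Genes with a mean above 0 (23695) were fitted in limma 3.58.1 (R 4.3.3) with terms for genotype, sex, cohort and RNA integrity over all 30 mice (eBayes with trend, two-sided), adjusted by Benjamini-Hochberg over all of them and called at 0.05; the script was tested on simulated data. Within-cohort and within-sex differences come from fits with the interaction. Pairs of genes were tested by 100000 permutations. The 10 genes, all named, and the gene lists were chosen with earlier results of these data known. The text further names the 12 genes of highest r with the group, the 4 largest KO against WT differences of the wider list and any list gene called. The alternatives were other covariates, weights, filters, centring and left-out mice.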

Additional observations from a re-analysis of the deposited data

Results flagged for a closer look

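In each genotype (n = 10) the lowest and highest mouse of each of the 10 genes was compared with the nearest of the others by Dixon's ratio. In 10 of 30 such groups a mouse stood apart. The nominal rate is about 1 in 20 for normal values, and the share over all genes is not given here. The 10 groups are not independent because the genes move together, so their number cannot be set against that rate. WT replicate 10 stood low for Ttr (12.2259), Kl (5.3891), Clic6 (5.6748), Kcnj13 (4.5993), F5 (2.7957) and Slc4a5 (3.0237). KO replicate 5 stood low for Ttr (12.0442), Otx2 (4.4289) and Slc4a5 (2.5393). KO replicate 5 was also the lowest KO mouse for Folr1 and F5, but KO replicate 8 lay between it and the rest, so it did not stand apart by this ratio. HET replicate 8 stood low for Enpp3 (0.6202) and for no other of the genes. No difference between cohorts or sexes in the KO against WT difference of these genes passed its test.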

How the results depend on the processing

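No paired analysis was possible because the replicate numbers were given in sample order and the labels tie no mice together. For this group, 0 of the 10 genes were called in the 8 comparisons over both cohorts under each alternative run, and the lowest adjusted p for KO against WT was 0.103 (Kl, without WT replicate 10). The cohort 1 count, 1 (Folr1), was 0 with only the groups compared, 2 with array weights, 0 without the 3 lowest mice and 0 to 2 when each mouse was left out. The median r over 45 pairs (0.72) was 0.52 within HET, 0.47 without the 2 farthest mice, 0.44 without the 3 lowest and 0.65 to 0.74 when each mouse was left out. Alternatives without the lowest mice, and the cohort 1 count itself, were chosen after seeing the data. Of the log2 differences of single genes, 48 of 798 values changed sign. KO against WT turned to -0.0068 (array weights) and -0.0082 (without the 2 lowest mice) for Aqp1 and -0.0333 (without the 3 lowest) for Enpp3. Cohort 2 against cohort 1 turned to -0.0251 (without RIN) and -0.0008 (without the 3 lowest) for Ttr, to -0.0122 for Clic6 (without the 3 lowest), and for Enpp3 to 0.0287 (array weights), 0.0106 and 0.0258 (without the 2 and 3 lowest). Left-out mice gave KO against WT ranges of -0.1059 to 0.0309 for Ttr, -0.0161 to 0.1682 for Kcnj13, -0.0762 to 0.0865 for Aqp1, -0.0014 to 0.1500 for Enpp3, and cohort ranges of -0.0540 to 0.0613 for Ttr, -0.0641 to 0.1074 for Kl, -0.0470 to 0.0819 for Clic6, -0.0041 to 0.0794 for Otx2, -0.1097 to 0.0462 for Enpp3, -0.0569 to 0.1440 for Slc4a5. The cause of these turns was not tested. Cohort and sex contrasts could not be fitted with genotype alone, and Enpp3 was not tested with a mean above 3. Read depth is unknown, so its limit on Enpp3 cannot be given.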
